A study of Mus musculus with 84 samples.

Results

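Metallothioneins and genes of the NRF2 antioxidant response were followed in RNA of astrocytes sorted from spinal cord, hindbrain and forebrain, in experimental autoimmune encephalomyelitis (EAE), in untreated mice and in culture. The group held 9 genes, set by name with earlier results of these data known, out of 48526 genes listed in the EAE table. They were the metallothionein genes Mt1, Mt2 and Mt3, the heme oxygenase gene Hmox1, the quinone reductase gene Nqo1, the glutathione synthesis genes Gclc and Gclm, the cystine transporter gene Slc7a11, and Nfe2l2, which encodes NRF2 itself. All 9 were detected well enough to enter every test, in which 23324 genes were tested for EAE, 14957 for the untreated populations and 17126 for the cultures.

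Metallothioneins are small, cysteine-rich proteins that bind zinc and copper and scavenge radicals. Mt1 and Mt2 are transcribed in many cell types in response to zinc through the factor MTF1, and also to glucocorticoids and to STAT3, while Mt3 is largely a brain gene with little such induction. NRF2 is held in the cytoplasm by KEAP1 and degraded. Oxidants and electrophiles release it, and it then binds antioxidant response elements with a small MAF protein and drives genes for glutathione synthesis, cystine uptake, quinone reduction and heme breakdown. Hmox1 is also repressed by the heme sensor BACH1, and Slc7a11 is also driven by ATF4. In the brain, astrocytes supply neurons with glutathione precursors and are a main site of NRF2 activity.

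In the EAE experiment, 66 libraries came from 10-week-old female C57BL/6J mice that were unimmunized controls (C) or had been given MOG35-55 with complete Freund's adjuvant and pertussis toxin and were killed at score 1 with a limp tail (E1), at score 4 with paralysed hind legs (E4) or in the chronic stage (Ech). Viable cells negative for CD11B and CD45 and positive for ACSA-2 were sorted as GLASTneg cells of spinal cord, GLASTneg cells of hindbrain and GLASTpos cells of hindbrain, and a library held the RNA of 1 mouse or of 2 mice pooled. Spinal cord GLASTneg groups held 5 (C), 5 (E1), 6 (E4) and 6 (Ech) libraries, hindbrain GLASTneg groups 5, 6, 6 and 6, and hindbrain GLASTpos groups 5, 6, 6 and 4. Controls received neither adjuvant nor toxin, so autoimmune disease and the effects of adjuvant and toxin cannot be told apart. In the subtype experiment, 15 libraries came from untreated FVB/N mice sorted with the same markers, whose age and sex are not given in the sources used here, with 3 libraries in each of 5 populations. A further 3 libraries came from astrocytes of newborn C57BL/6 cerebrum that remained in the flask after microglia had been shaken off. No label states whether libraries of a group came from separate mice or days, so p-values measure the spread between libraries.

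The promoters of the 3 metallothionein genes are shown because these neighbouring genes on chromosome 8 carry the metallothionein results. They are the 250 bases before the RefSeq start on GRCm38.p6, all on the plus strand, at chr8:94178839-94179088 for Mt1, chr8:94172368-94172617 for Mt2 and chr8:94152357-94152606 for Mt3. Capitals mark letters of the metal response element core (TGCACNC or TGCGCNC) or of the antioxidant response element core (TGACNNNGC), searched on both strands.
Mt1: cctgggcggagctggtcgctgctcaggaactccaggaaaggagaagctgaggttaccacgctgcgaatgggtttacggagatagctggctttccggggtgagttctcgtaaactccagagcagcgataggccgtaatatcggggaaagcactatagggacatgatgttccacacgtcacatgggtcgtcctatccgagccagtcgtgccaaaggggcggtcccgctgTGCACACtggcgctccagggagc
Mt2: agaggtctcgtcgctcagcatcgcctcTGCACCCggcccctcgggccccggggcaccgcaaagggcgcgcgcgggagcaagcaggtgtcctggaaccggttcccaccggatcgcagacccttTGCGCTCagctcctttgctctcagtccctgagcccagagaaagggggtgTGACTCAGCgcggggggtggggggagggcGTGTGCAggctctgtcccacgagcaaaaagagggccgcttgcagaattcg
Mt3: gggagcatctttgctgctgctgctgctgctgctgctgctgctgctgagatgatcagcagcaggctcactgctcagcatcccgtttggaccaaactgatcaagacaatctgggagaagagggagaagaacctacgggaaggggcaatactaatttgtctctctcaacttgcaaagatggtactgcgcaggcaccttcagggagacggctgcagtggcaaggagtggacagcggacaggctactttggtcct
The Mt1 window held 1 metal response element match, at bases -23 to -17 from the RefSeq start used. The Mt2 window held 3, and 1 antioxidant response element match that also holds the AP-1 letters TGACTCA. The Mt3 window held neither. Of 32851 promoters of this length, 21.4% held at least 1 metal response element match, 5.17% held 2 or more and 10.2% held an antioxidant response element match. Among the other members, Gclm had 2 metal response element matches and 1 antioxidant response element match, which overlapped the farther of those 2, Nfe2l2 had 1 antioxidant response element match, and Nqo1 and Slc7a11 had neither. Promoters of Hmox1 and Gclc were not used here. A match describes letters in the window and is not a measured binding site. The Mt1 window ends at 94179088, past the GENCODE M21 gene start at 94179082, and bases beyond the window were not searched. Counts of matches therefore do not rank these genes.

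On GRCm38 (GENCODE M21), the 3 metallothionein genes lie on the plus strand of chromosome 8, at chr8:94152607-94154146 for Mt3, chr8:94172664-94173568 for Mt2 and chr8:94179082-94180327 for Mt1. Hmox1 (chr8:75093621-75100589, plus strand) and Nqo1 (chr8:107388225-107403206, minus strand) lie on the same chromosome. Gclc is at chr9:77754535-77794485 and Gclm at chr3:122245557-122270732, both on the plus strand, and Nfe2l2 is at chr2:75675513-75704641 and Slc7a11 at chr3:49892526-50443614, both on the minus strand. All 9 are protein-coding. Mt2 overlaps the gene Gm45774 on the opposite strand.

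Levels are given in CPM, the share of a library's counts scaled to 1e6, after TMM scaling, separately for each experiment, and differences as log2 fold changes ± standard error. A gene passed the two-sided quasi-likelihood test of edgeR at a Benjamini-Hochberg adjusted p below 0.05 over all genes of the fit. EAE libraries held 1313682 to 4895220 counts (median 2936680) and 3 counts, taken as the limit of detection, corresponded to between 0.634 and 2.44 CPM. FVB/N libraries held 416768 to 1269316 counts and culture libraries 2183464 to 8188074. Such limits cover counting error only. Hindbrain libraries carried the astrocyte markers throughout, at a summed level of 10 markers from 18130.4 to 30927 CPM over all stages. In spinal cord the same sum was 13071 to 18366 CPM at C, 4317 to 22252 at E1, 2429.6 to 3929.6 at E4 and 3500.5 to 5976 at Ech, and the sum of 10 oligodendrocyte markers was at 14358 to 41875, 26912 to 62071, 30361 to 77684 and 25393 to 41609 CPM. In such bulk RNA, fewer cells of a type and less RNA per cell cannot be told apart. A spinal cord E1 library, replicate 1, is named as hindbrain in its region field, E1 replicate 2 had the highest astrocyte sum of its group and E4 replicate 2 the highest myeloid sum, and results that rest on these 3 are given with and without them. They were chosen after the data had been seen.

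Before disease, Hmox1 and Slc7a11 separated the populations, and no metallothionein passed. In control spinal cord, Hmox1, which encodes the enzyme that opens heme to biliverdin, iron and carbon monoxide, was at 9.91, 15.7, 16.3, 12.6 and 16.4 CPM, against 76.5, 92.5, 52.6, 64.1 and 70.3 CPM in hindbrain GLASTneg cells. Every spinal cord library was below every hindbrain library (log2 fold change -2.32 ± 0.35, adjusted p = 1.23e-06). Slc7a11, the light chain of the cystine and glutamate exchanger, was at 389, 261, 426, 274 and 405 CPM in hindbrain GLASTneg controls, at 33.5, 38.3, 74.7, 67.8 and 116 CPM in hindbrain GLASTpos controls and at 43.6, 28.5, 33, 55 and 46.8 CPM in spinal cord controls. Hindbrain GLASTneg cells were thus above both other populations without overlap, with a log2 difference of -2.40 ± 0.45 (adjusted p = 4.25e-05) for GLASTpos cells and of -3.08 ± 0.46 (adjusted p = 1.07e-06) for spinal cord. The GLASTpos and spinal cord levels of Slc7a11 overlapped and were not tested against each other.

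Mt1 was at 1105, 1480.1, 1130, 1349 and 1812 CPM in spinal cord controls, at 1942, 3099.9, 2480.1, 2152 and 1421 CPM in hindbrain GLASTneg controls and at 2560.2, 2536, 3509, 3292 and 3263 CPM in GLASTpos controls, and it passed in neither comparison with hindbrain GLASTneg cells (adjusted p = 0.317 and 0.472). Nfe2l2 was at 88.2, 82.3, 88.9, 79.1 and 103 CPM in spinal cord controls and at 137, 153, 132, 139.9 and 112 CPM in hindbrain GLASTneg controls, which did not overlap, although the test was not passed (log2 fold change -0.61 ± 0.21, adjusted p = 0.0799). It passed in 2 of 9 other settings, with DESeq2 (-0.61, adjusted p = 0.0383) and without the 3 doubted libraries (-0.61, adjusted p = 0.0454). Those libraries are not controls, so leaving them out changed only what the fit shares between groups. Over the 9 settings the adjusted p ran up to 0.384, and 0 of 10 fits that left out 1 library passed. Nqo1 did not pass for GLASTpos against GLASTneg hindbrain controls (1.07, adjusted p = 0.107), nor in any of 10 fits that left out 1 library. It passed in 2 of 8 other settings, over which the adjusted p ran up to 0.656. One of these 2 had the first number of the library name as a random block after filterByExpr (1.19, adjusted p = 0.0235). In all, 2 of 9 members passed for spinal cord against hindbrain GLASTneg controls, where 5.33% of all genes passed, and 1 of 9 for GLASTpos against GLASTneg, where 13.5% passed. In the latter comparison the median over all genes was -0.11 on the log2 scale. The last number in the library names, whose meaning the labels do not give, was 56 or below in every hindbrain GLASTneg library and 57 or above in every GLASTpos and every control spinal cord library, so this number and the population cannot be told apart in controls. With a term for it, which spinal cord EAE libraries alone can estimate, the Slc7a11 differences no longer passed (-1.49, adjusted p = 0.215 for GLASTpos, -2.18, adjusted p = 0.0787 for spinal cord), and Mt1 and Mt2 were lower in spinal cord controls (-1.74, adjusted p = 0.04 and -2.01, adjusted p = 0.0138).

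During acute EAE, Mt1 and Mt2 rose in hindbrain GLASTpos cells, and in the chronic stage they overlapped the controls again. Mt2 was at 3614, 4550.1, 3557, 3958 and 5439 CPM in GLASTpos controls, at 11999 to 32661 CPM (median 14890.5) in 6 libraries at E1 and at 11222 to 23536 CPM (median 13020.4) in 6 at E4. All 12 acute libraries were above all 5 controls (log2 fold change 2.01 ± 0.39, adjusted p = 0.000605 at E1 and log2 fold change 1.77 ± 0.38, adjusted p = 0.00266 at E4). In the chronic stage Mt2 was at 3416, 3405, 4833 and 8871 CPM, which overlapped the controls (log2 fold change 0.28 ± 0.41, adjusted p = 0.895). Mt1 followed it, from 2560.2, 2536, 3509, 3292 and 3263 CPM in controls to 5638 to 15675 CPM (median 8301) at E1 and 6251 to 13222 CPM (median 7549) at E4, again without overlap (log2 fold change 1.58 ± 0.38, adjusted p = 0.0128 and log2 fold change 1.47 ± 0.38, adjusted p = 0.0203). At Ech it was at 2204, 1846, 2912 and 5078 CPM (log2 fold change -0.011 ± 0.41, adjusted p = 1). The Mt1 call at E4 was lost without C replicate 1 (adjusted p = 0.0593), without C replicate 2 (0.0655) or without E4 replicate 6 (0.0598).

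**Figure D1:**
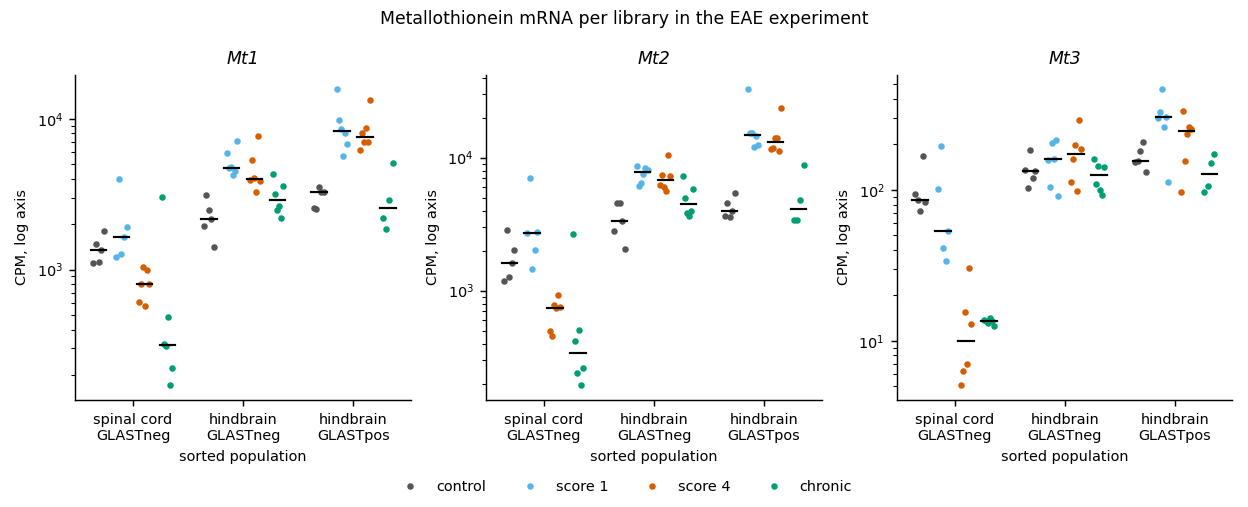
Levels of Mt1, Mt2 and Mt3 in each of the 66 EAE libraries (CPM on a log axis, 1 point per library, black bars for group medians), by sorted population and stage. In hindbrain the E1 and E4 points of Mt1 and Mt2 lie above all controls of the same population, and in spinal cord the E4 points of all 3 genes lie below all controls, with Mt3 at 5.08 to 30.5 CPM.

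Hindbrain GLASTneg cells had higher Mt1 and Mt2 in every acute library too, but this did not pass in the fit over all 66 libraries. Mt1 was at 1942, 3099.9, 2480.1, 2152 and 1421 CPM in controls, at 4251 to 7085 CPM (median 4739) at E1 and at 3249 to 7734 CPM (median 3983) at E4. The groups did not overlap (log2 fold change 1.23 ± 0.38, adjusted p = 0.148 at E1, log2 fold change 1.08 ± 0.38, adjusted p = 0.331 at E4). Mt2 was at 2825, 4567, 4579, 3315 and 2042 CPM in controls, 6091 to 8731 CPM (median 7791) at E1 and 5626 to 10552 CPM (median 6748) at E4, also without overlap (log2 fold change 1.12 ± 0.38, adjusted p = 0.251 and log2 fold change 1.05 ± 0.38, adjusted p = 0.379). When the 23 hindbrain GLASTneg libraries were fitted alone, Mt1 passed at E1 (1.23, adjusted p = 6.18e-05) and at E4 (1.09, adjusted p = 0.000359), and so did Mt2 (1.13, adjusted p = 0.000145, and 1.06, adjusted p = 0.000314), while over the 6 alternatives the adjusted p of Mt1 at E1 ran from 6.18e-05 to 0.155. At Ech, Mt1 was at 2209 to 4291 CPM (median 2904) and Mt2 at 3660.1 to 7322 CPM (median 4474), overlapping the controls.

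Across the 9 members in hindbrain GLASTneg cells, 0 passed in edgeR at E1, E4 and Ech, where 0.677%, 0.755% and 0.197% of all genes passed. At an unadjusted p below 0.05 the counts were 2, 2 and 1, and DESeq2 also called 0. In GLASTpos cells 3 of 9 passed at E1 (2 higher, 1 lower), 2 at E4 (both higher) and 0 at Ech, against 1.58%, 2.18% and 1.43% of all genes. At Ech in GLASTpos cells 1 member was below an unadjusted p of 0.05, and DESeq2 called 0. Median log2 fold changes of the members were 0.47 and 0.45 in GLASTpos cells at E1 and E4 and 0.20 and 0.15 in GLASTneg cells, beside 0 over all genes in each. Summed astrocyte markers in GLASTpos cells were at 25706 to 28182 CPM at C, 23604 to 30848 at E1 and 18352 to 30927 at E4. At Ech they were at 18130 to 24693 CPM, below all GLASTpos controls. In GLASTneg cells the sums were 20769 to 26283 CPM at C, 22309 to 27044 at E1 and 22501 to 26387 at E4, which overlapped. The GLASTneg sums at Ech, 18274 to 23662 CPM, overlapped their controls too. Summed myeloid markers in GLASTpos cells were at 50.0 to 87.9 CPM at C, 112 to 434 at E1 and 121 to 481 at E4. In GLASTneg cells they were at 32.6 to 102, 165 to 410.3 and 176 to 730.5 CPM. Summed oligodendrocyte precursor markers in GLASTneg cells were at 16.6 to 20.8 CPM at C, 20.9 to 35 at E1 and 34 to 76.4 at E4, with both acute groups above all controls, and summed oligodendrocyte markers at 1470.4 to 5103, 4211 to 12328 and 2483 to 11383 CPM, which overlapped. Their part in these results was not tested.

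The response of GLASTpos and GLASTneg hindbrain cells was not shown to differ for any member. In the interaction contrasts 0 of 9 passed at E1, E4 and Ech, where 0.00857%, 0.00857% and 0.06% of all genes passed. Unadjusted p was below 0.05 for 0, 1 and 2 members, and DESeq2 called 0. For Mt2 the GLASTpos response exceeded the GLASTneg response by 0.89 ± 0.52 (adjusted p = 0.686) at E1 and 0.72 ± 0.52 (adjusted p = 0.843) at E4 on the log2 scale, both within 2 standard errors of 0.

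In spinal cord, Mt2 and Mt3 fell at E4 and in the chronic stage. Mt3, the brain metallothionein, was at 93.7, 85.9, 72, 167 and 83.3 CPM in controls and at 101, 196, 41.1, 33.6 and 53.4 CPM at E1, and then fell to 5.08 to 30.5 CPM (median 9.94) at E4 and 12.6 to 14.1 CPM (median 13.5) at Ech. E1 overlapped the controls, and all 12 libraries at E4 and Ech were below every control (log2 fold change -0.25 ± 0.34, adjusted p = 0.759 at E1, log2 fold change -2.91 ± 0.35, adjusted p = 2.26e-10 at E4, log2 fold change -2.90 ± 0.35, adjusted p = 2.76e-10 at Ech). Without the 3 doubted libraries, which include those at 101 and 196 CPM, the highest of E1, Mt3 was lower at E1 (-1.24, adjusted p = 0.0156). Mt2 was at 1176, 2836, 1274, 1623 and 2011 CPM in controls, at 2698, 7079, 1466, 2024 and 2779 CPM at E1, at 459 to 926 CPM (median 744) at E4 and at 194 to 2651 CPM (median 339.6) at Ech. It overlapped the controls at E1 (log2 fold change 0.85 ± 0.39, adjusted p = 0.151), fell at E4 with every library below every control (log2 fold change -1.37 ± 0.37, adjusted p = 0.00356), and fell at Ech with 5 of 6 below (log2 fold change -1.33 ± 0.37, adjusted p = 0.00587).

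Mt1 was below all controls in each of the 6 libraries at E4 but did not pass. It was at 1105, 1480.1, 1130, 1349 and 1812 CPM in controls, at 577 to 1037 CPM (median 799.7) at E4 and at 171 to 3025 CPM (median 317) at Ech, and neither stage passed (log2 fold change -0.78 ± 0.37, adjusted p = 0.115, and log2 fold change -0.86 ± 0.37, adjusted p = 0.0899). A single chronic library, replicate 1, stood at 3025 CPM of Mt1 and 2651 CPM of Mt2, while the other 5 were at 171 to 486 CPM and 194 to 503 CPM. Without it, Mt1 fell at Ech (-2.18, adjusted p = 5.6e-09) and the log2 fold change of Mt2 went from -1.33 to -2.47 (adjusted p = 2.08e-09). With spinal cord fitted alone, Mt2 did not pass at Ech (-1.27, adjusted p = 0.066). All 5 spinal cord controls had a last library number of 57 or above, as did 1 of 6 at E4 and 4 of 6 at Ech. With a term for it, the Mt2 difference at E4 no longer passed (-0.46, adjusted p = 0.671). The single E4 library on the controls' side of it, replicate 3, had 777 CPM of Mt2, 1037 CPM of Mt1 and 15.6 CPM of Mt3, each below all 5 controls.

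In the same spinal cord isolates, Hmox1 rose at each stage. From 9.91, 15.7, 16.3, 12.6 and 16.4 CPM in controls it went to 53.5, 58.8, 124, 82.9 and 111 CPM at E1, to 102 to 419.6 CPM (median 180.3) at E4 and to 42.7 to 262 CPM (median 61.1) at Ech. Each of the 17 EAE libraries was above every control (log2 fold change 2.59 ± 0.35, adjusted p = 1.61e-07 at E1, log2 fold change 3.89 ± 0.36, adjusted p = 1.95e-14 at E4, log2 fold change 2.91 ± 0.35, adjusted p = 2.66e-10 at Ech). These 3 calls held under all 8 other settings run for them, including that without the 3 doubted libraries. They also held when any 1 library was left out, where the E4 value ran from 3.58 to 4.08. Hindbrain Hmox1 started from the higher control level given above and did not pass at any stage in either population, with log2 fold changes between -0.47 and 0.60.

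**Figure D2:**
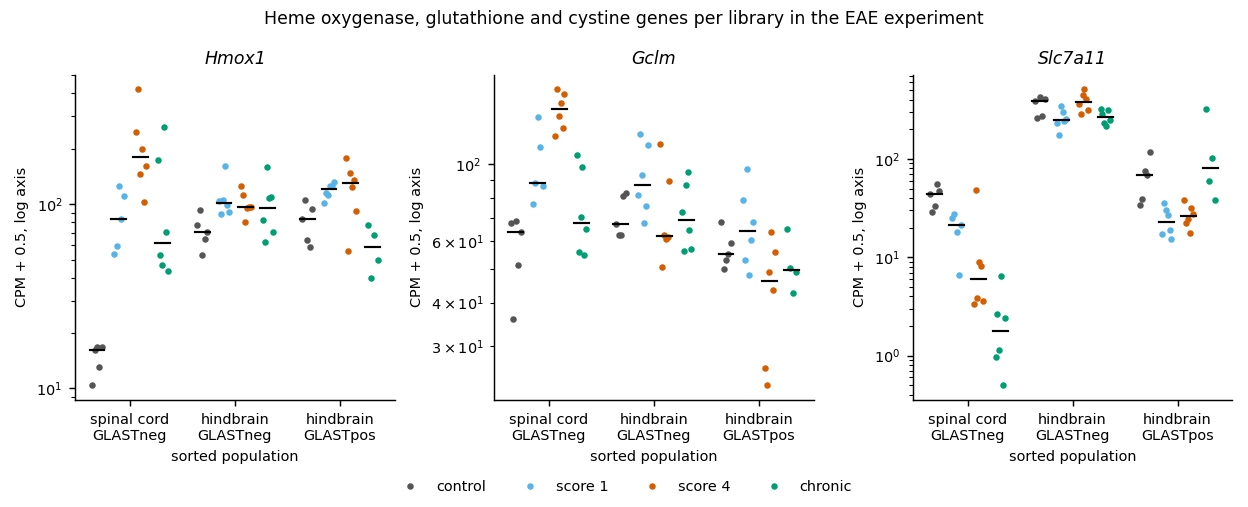
Levels of Hmox1, Gclm and Slc7a11 in each of the 66 EAE libraries (CPM plus 0.5 on a log axis, 1 point per library, black bars for group medians), by sorted population and stage. All spinal cord EAE points of Hmox1 lie above the 5 controls, which are at 9.91 to 16.4 CPM before the 0.5 is added, and Slc7a11 is highest in hindbrain GLASTneg cells at every stage, apart from 1 chronic GLASTpos library at 322 CPM that lies within their range.

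Gclm, the regulatory subunit of the enzyme that limits glutathione synthesis, rose in spinal cord in the acute stages. It was at 67.4, 35.4, 67.9, 50.9 and 63.2 CPM in controls, at 76.2, 87.5, 136, 111 and 86 CPM at E1 and at 119.6 to 164 CPM (median 143) at E4. Both acute groups were above all controls (log2 fold change 0.80 ± 0.24, adjusted p = 0.0209 at E1, log2 fold change 1.32 ± 0.23, adjusted p = 5.5e-06 at E4). By Ech it was at 54.3 to 106 CPM (median 67.1), overlapping the controls (log2 fold change 0.39 ± 0.23, adjusted p = 0.228). The E1 call was lost without C replicate 2 (adjusted p = 0.0834), without C replicate 4 (0.0593) or without E1 replicate 3 (0.0919). Gclm overlaps the gene Gm6061 on the same strand and Gm17494 on the opposite strand, and of its 1678 stretches of 50 bases near transcript ends, 12.3% also occur in other genes, as do 1.67% of those of Slc7a11. Gclc, the catalytic subunit of the same enzyme, was between 5.98 and 48.6 CPM over all EAE libraries and passed in no stage contrast, with -0.19, -0.36 and -0.071 on the log2 scale in spinal cord.

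Slc7a11, which brings in the cystine for glutathione, fell in spinal cord at E4 and in the chronic stage. It was at 43.6, 28.5, 33, 55 and 46.8 CPM in controls and at 24.4, 27.3, 17.8, 6.17 and 20.8 CPM at E1, at 2.82 to 47.6 CPM (median 5.55) at E4 and at 0 to 5.91 CPM (median 1.28) at Ech. All E1 and Ech libraries were below all controls, and 3 of 6 at Ech were at or under the limit of 3 counts. At E1 the test was not passed (log2 fold change -1.10 ± 0.45, adjusted p = 0.114), whereas it was at E4 (log2 fold change -1.78 ± 0.44, adjusted p = 0.00135) and at Ech (log2 fold change -4.65 ± 0.53, adjusted p = 6.02e-11). The single high E4 value belonged to replicate 2, which also had 5204 CPM of summed myeloid markers against at most 342 CPM in the other 5, and without it the log2 fold change at E4 was -2.96 (adjusted p = 4.9e-08). Leaving out Ech replicate 4 moved the Ech value to -5.31 (adjusted p = 1.26e-11), and without the 3 doubted libraries E1 passed too (-1.47, adjusted p = 0.0229).

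In hindbrain GLASTpos cells Slc7a11 was at 33.5, 38.3, 74.7, 67.8 and 116 CPM in controls, 15 to 35.1 CPM (median 22.4) at E1, 17.1 to 38 CPM (median 25.7) at E4, and 322, 59.3, 102 and 38 CPM at Ech. E1 and E4 each overlapped the lowest controls, and E1 passed (log2 fold change -1.49 ± 0.42, adjusted p = 0.0449) while E4 did not (log2 fold change -1.31 ± 0.42, adjusted p = 0.0796). The E1 call rested on single libraries, since it was lost without any one of C replicates 3, 4 and 5 and E1 replicates 1, 4, 5 and 6 (adjusted p = 0.0789 to 0.208). It was also lost with median-of-ratios scaling (-1.48, adjusted p = 0.0559) and narrowly with DESeq2 (-1.48, adjusted p = 0.0501). Hindbrain GLASTneg cells kept 176 to 510 CPM at all stages and no stage passed.

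Nfe2l2 mRNA itself passed at no stage against control in any population. In spinal cord it was at 88.2, 82.3, 88.9, 79.1 and 103 CPM in controls, 79.2 to 209 CPM (median 118) at E4 and 44.4 to 73.7 CPM (median 66.6) at Ech (log2 fold change 0.50 ± 0.20, adjusted p = 0.0645, and log2 fold change -0.46 ± 0.20, adjusted p = 0.101). The chronic libraries were all below the controls, and E4 overlapped them. E4 passed in 2 of 8 other settings, with DESeq2 (0.50, adjusted p = 0.0434) and with filterByExpr (0.49, adjusted p = 0.0492). Over the 8 settings the value ran from 0.29 to 0.56 and the adjusted p up to 0.303. Of 11 fits that left out 1 library, 2 passed, without E4 replicate 1 (0.60, adjusted p = 0.0316) or replicate 5 (0.65, adjusted p = 0.0154). Over these 11 the value went as low as 0.30 and the adjusted p up to 0.302. Nqo1, a standard readout of NRF2 activity in many tissues, was between 1.65 and 58.3 CPM over the EAE libraries and passed at no stage, with 0.10, -0.76 and -0.025 in spinal cord.

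Counted over the 9 members in spinal cord, 2 passed at E1 (both higher), 5 at E4 (2 higher, 3 lower) and 4 at Ech (1 higher, 3 lower), where 8.42%, 22.4% and 18.7% of all genes passed. Median log2 fold changes of the members were 0.15, -0.76 and -0.46, beside 0 over all genes. Of the members that passed, Gclm at E1 had a fold change below the study's limit of 1 on the log2 scale.

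**Figure D3:**
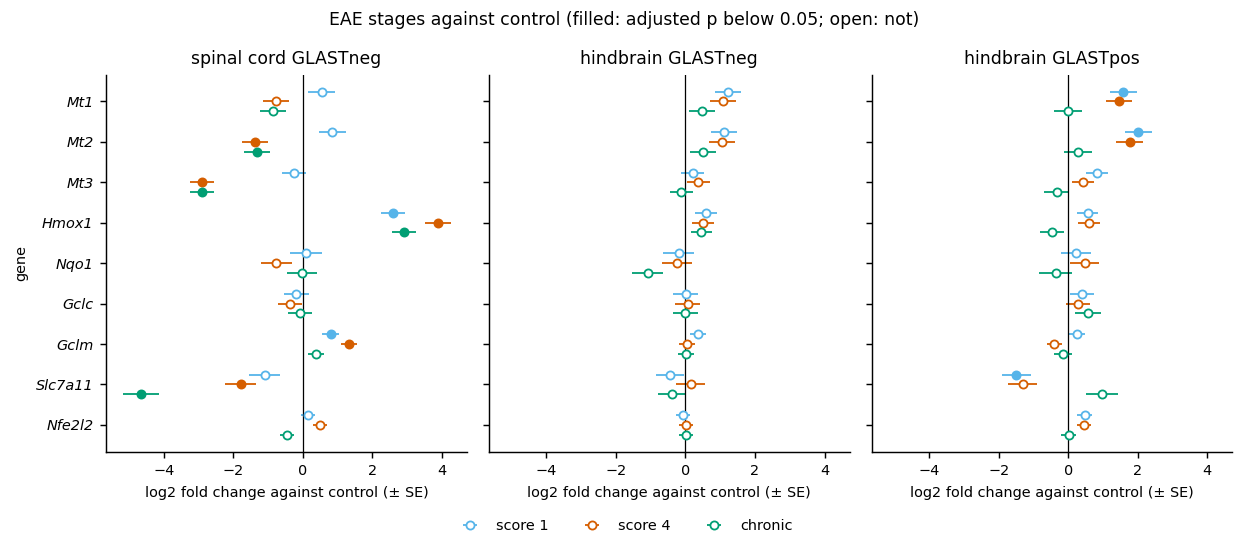
Log2 fold change against control with its standard error for the 9 genes (rows) at E1, E4 and Ech in spinal cord GLASTneg, hindbrain GLASTneg and hindbrain GLASTpos cells. Filled points passed the test at an adjusted p below 0.05. In spinal cord Hmox1 and Gclm lie to the right and Mt2, Mt3 and Slc7a11 to the left at E4, from -2.91 for Mt3 to 3.89 for Hmox1, and no hindbrain GLASTneg point is filled.

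Marker genes of the sorted cells moved with these results. At E4 in spinal cord 8 of 10 astrocyte markers were lower and 1 was higher, with a median log2 fold change of -3.49. Slc1a2, the glutamate transporter GLT-1, was at 2749.7 to 4486 CPM in controls, 139 to 603 at E4 and 133 to 409 at Ech, and the water channel gene Aqp4 was at 834 to 1014 CPM in controls and 11.3 to 195 at E4. Meanwhile 8 of 10 oligodendrocyte markers and 15 of 17 myeloid markers were higher at E4, and 4 of 4 oligodendrocyte precursor markers at Ech. Of all genes 12.7% were lower and 9.76% higher at E4, and 7.64% were higher at Ech. Summed precursor markers at E4 were at 349.6 to 705.7 CPM, which overlapped the 197 to 602 CPM of controls. The summed myeloid markers were at 14.4 to 47.6 CPM at C and 134 to 5204 at E4, and the summed Hox genes of spinal cord position at 288 to 483 and 34.1 to 84.4 CPM. Of 5 hemoglobin and other red cell markers 1 was higher at E1 and 0 at E4, where 3.94% and 9.76% of all genes were higher. A count of 0 among 5 is therefore no result about these markers. The part of these shifts in the results for Mt1, Mt2, Mt3, Slc7a11, Hmox1 and Gclm was not tested. Without the E4 library of high myeloid markers and both doubted E1 libraries, 13 of 27 member results passed in spinal cord in place of 11.

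**Figure D4:**
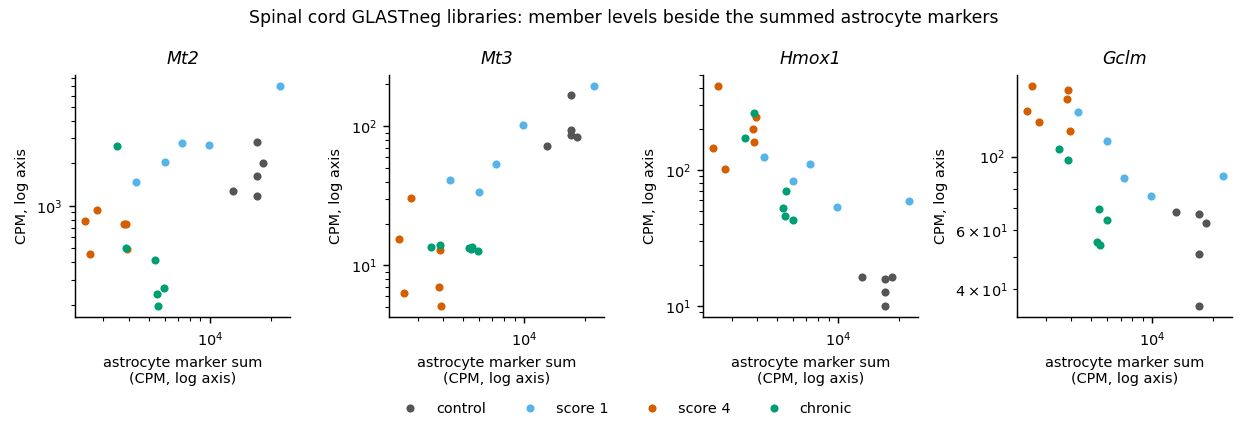
Levels of Mt2, Mt3, Hmox1 and Gclm against the summed astrocyte markers in the 22 spinal cord GLASTneg libraries (both in CPM on log axes, 1 point per library, coloured by stage). Libraries at E4 have low astrocyte sums (2429.6 to 3929.6 CPM) together with low Mt2 and Mt3 and high Hmox1 and Gclm, and the controls sit at 13071 to 18366 CPM.

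From score 4 to the chronic stage, Hmox1 and Gclm, which had risen in spinal cord, came down, and Slc7a11 fell further. Against E4, Ech was lower for Hmox1 (log2 fold change -0.98 ± 0.29, adjusted p = 0.0372), Gclm (log2 fold change -0.94 ± 0.22, adjusted p = 0.00356), Nfe2l2 (log2 fold change -0.96 ± 0.19, adjusted p = 0.000667) and Slc7a11 (log2 fold change -2.87 ± 0.53, adjusted p = 0.000183). For Gclm and Nfe2l2 the groups did not overlap. Mt3 did not pass between these stages (log2 fold change 0.001 ± 0.38, adjusted p = 1), nor did Mt2 (log2 fold change 0.041 ± 0.35, adjusted p = 1), but without Ech replicate 1 Mt2 was lower at Ech (-1.10, adjusted p = 0.0141) and so was Mt1 (-1.41, adjusted p = 0.00033). The Hmox1 call was lost without any one of E4 replicates 1, 2 and 4 and Ech replicates 2, 3, 5 and 6 (adjusted p = 0.0547 to 0.215), without the 3 doubted libraries (-0.65, adjusted p = 0.205), in spinal cord fitted alone (-0.97, adjusted p = 0.164) and with the term for the last library number (-0.63, adjusted p = 0.36), with which Gclm did not pass either (-0.83, adjusted p = 0.0587). For Slc7a11 the value was -1.69 (adjusted p = 0.0313) without E4 replicate 2 and -3.53 (adjusted p = 1.51e-05) without Ech replicate 4.

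In hindbrain GLASTpos cells the drop was that of Mt1 and Mt2. Each chronic library was below each E4 library for both (log2 fold change -1.48 ± 0.41, adjusted p = 0.0243 for Mt1, log2 fold change -1.49 ± 0.41, adjusted p = 0.0222 for Mt2). Both calls were lost without E4 replicate 6 or Ech replicates 1, 2 or 3, with an adjusted p from 0.0572 to 0.108. Slc7a11 rose (log2 fold change 2.28 ± 0.44, adjusted p = 0.00039), and without Ech replicate 1, the library at 322 CPM, it did not (1.31, adjusted p = 0.0806). Hmox1 was at 77, 39.4, 67.1 and 49.3 CPM at Ech against 55.2 to 177 CPM (median 129) at E4 (log2 fold change -1.06 ± 0.34, adjusted p = 0.0555). That difference passed in 6 of 7 other settings. In all, 4 of 9 members passed in spinal cord (all lower), 0 in hindbrain GLASTneg cells and 3 in GLASTpos cells (1 higher, 2 lower), where 4.45%, 0.0857% and 4.11% of all genes passed. In hindbrain GLASTneg cells 0 members were below an unadjusted p of 0.05 and DESeq2 called 0. Oligodendrocyte marker sums in GLASTpos cells were 2269.6 to 4399 CPM at Ech and 1058 to 2284 at E4. Oligodendrocyte precursor sums were 42.6 to 105 CPM at Ech and 5.47 to 35.9 at E4, without overlap, and the part of both was not tested.

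Spinal cord and hindbrain GLASTneg cells were then compared in their response itself, as the difference between their changes from control. At E4 the response differed for 6 of 9 members. It was higher in spinal cord for Hmox1 (3.39 ± 0.46, adjusted p = 2.51e-08) and Gclm (1.29 ± 0.32, adjusted p = 0.00401), and lower for Mt1 (-1.86 ± 0.53, adjusted p = 0.0138), Mt2 (-2.42 ± 0.53, adjusted p = 0.00067), Mt3 (-3.28 ± 0.48, adjusted p = 1.98e-07) and Slc7a11 (-1.93 ± 0.60, adjusted p = 0.03). At E1 only Hmox1 passed among the 9 (2.00 ± 0.46, adjusted p = 0.0366). At Ech Hmox1 was higher (2.45 ± 0.45, adjusted p = 4.96e-05), and Mt2 (-1.83 ± 0.52, adjusted p = 0.0168), Mt3 (-2.79 ± 0.47, adjusted p = 9.19e-06) and Slc7a11 (-4.28 ± 0.67, adjusted p = 1.73e-06) were lower. All genes passed at 0.214%, 8.56% and 7.2% at E1, E4 and Ech, and the members at 1, 6 and 4 of 9.

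Some of these differences rested on single libraries or on 1 setting. Hmox1 at E1 was lost without any one of 13 libraries, which were C replicates 1, 2 and 5 and E1 replicates 1, 2, 3 and 6 of hindbrain and C replicates 1, 4 and 5 and E1 replicates 3, 4 and 5 of spinal cord (adjusted p = 0.0526 to 0.113). Slc7a11 at E4 was lost without hindbrain C replicates 2 or 4 or E4 replicate 4, or without spinal cord C replicate 4 or E4 replicates 1, 3 or 6 (adjusted p = 0.0515 to 0.0628), and was -3.11 without spinal cord E4 replicate 2. Mt2 at Ech was lost without spinal cord C replicate 2 (-1.60, adjusted p = 0.0513) and was -2.97 without Ech replicate 1, a library without which Mt1 passed as well (-2.65, adjusted p = 3.25e-07). Slc7a11 at Ech was -4.93 without spinal cord Ech replicate 4. With the term for the last library number, Mt1 and Mt2 at E4 went to -0.98, adjusted p = 0.531 and -1.51, adjusted p = 0.19. Gclm at E4 (1.12, adjusted p = 0.0736) and Hmox1 at E1 (1.80, adjusted p = 0.0531) kept most of their size and did not pass either. With the first number of the library name as a random block, on genes that filterByExpr kept, Hmox1 at E1 did not pass (1.92, adjusted p = 0.104), Mt1 at Ech did (-2.13, adjusted p = 0.000795), and the other calls stood. Hmox1 and Mt3 at E4 passed in each of the settings run.

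Other genes of these pathways were followed as lists. At E4 in spinal cord, 10 of 21 further NRF2 targets were higher and 5 lower, with a median of 0.76 on the log2 scale beside 0 over all genes. Over all genes tested, 9.76% were higher and 12.7% lower in this contrast (22.4% in all), beside which the counts of this and the following lists are to be read. Txnrd1, the cytosolic thioredoxin reductase, rose (log2 fold change 1.90 ± 0.28, adjusted p = 9.92e-08) and the glutathione transferase gene Gsta4 fell (log2 fold change -3.12 ± 0.42, adjusted p = 6.95e-09). Among 8 regulators of NRF2, 4 were higher and 1 lower (median 0.73), with Keap1, the NRF2 inhibitor, higher (log2 fold change 0.89 ± 0.26, adjusted p = 0.0073) and the partner gene Mafg lower (log2 fold change -0.74 ± 0.21, adjusted p = 0.00666). Of 9 other glutathione genes 3 were higher and 2 lower (median 0.69), among them the peroxidase gene Gpx1, which rose (log2 fold change 1.81 ± 0.29, adjusted p = 6.47e-07), and Slc3a2, the heavy chain that pairs with Slc7a11, which fell (log2 fold change -1.98 ± 0.22, adjusted p = 1.36e-11). Of 9 heme and iron genes 3 were higher and 2 lower (median 0.33). The heme transporter gene Slc48a1 rose (log2 fold change 1.38 ± 0.22, adjusted p = 6.97e-07) and the transferrin receptor gene Tfrc fell (log2 fold change -0.70 ± 0.17, adjusted p = 0.0012).

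In the zinc and superoxide lists the shares that passed were near that of all genes. Of 7 zinc handling genes tested 2 were lower and 0 higher (median -0.55), with the zinc importer gene Slc39a12 lowest (log2 fold change -5.72 ± 0.49, adjusted p = 7.13e-16). Of 11 superoxide and peroxide enzymes 2 were lower and 0 higher (median -0.11), including the extracellular superoxide dismutase gene Sod3 (log2 fold change -4.14 ± 0.44, adjusted p = 4.2e-12). Genes of other stress and signalling lists were also counted. Of 9 STAT3 acute-phase genes 8 were higher (median 2.73, Serpina3n log2 fold change 6.45 ± 0.58, adjusted p = 5.93e-15), of 8 glucocorticoid-responsive genes 3 were higher and 1 lower (median 0.80, Sgk1 higher, log2 fold change 3.35 ± 0.60, adjusted p = 7.29e-06, and Tsc22d3 lower, log2 fold change -1.17 ± 0.28, adjusted p = 0.000883), of 9 ATF4 targets 4 were higher (median 1.18, Atf4 itself log2 fold change 1.47 ± 0.22, adjusted p = 8.51e-08) and of 11 genes of dissociation stress 5 were higher (median 1.35, Junb log2 fold change 4.30 ± 0.53, adjusted p = 4.56e-10).

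In hindbrain at E4, 0.725% of all genes in GLASTneg and 1.75% in GLASTpos cells passed as higher, so that a count of 0 in a list is no result about that list. Of the 9 STAT3 acute-phase genes 7 were higher in GLASTneg and 4 in GLASTpos cells (medians 3.87 and 2.80), and of the 8 glucocorticoid-responsive genes 3 and 4 (medians 1.07 and 1.28), with none lower by the test. Dissociation stress genes passed as higher in 2 and 1 of 11, further NRF2 targets in 0 and 1 of 21 and ATF4 targets in 0 and 1 of 9. Members of the NRF2 regulator, glutathione, heme and iron, zinc and superoxide lists passed in 0 cases in either population at E4.

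In untreated FVB/N mice the labels give hindbrain and forebrain GLASTneg and GLASTpos cells and spinal cord GLASTneg cells, but position genes went against the labels. Summed Hox genes of spinal cord position were at 414 to 504 CPM in the libraries labelled hindbrain GLASTneg and at 0 in all 3 labelled spinal cord. Summed forebrain position genes were at 610 to 708 CPM in those labelled hindbrain GLASTpos and 2.16 to 30.4 in those labelled forebrain GLASTpos. Gdf10, a Bergmann glia gene, was at 1815 to 2669 CPM in those labelled spinal cord and 58.2 to 82.1 in those labelled hindbrain GLASTpos. The study's own supplementary headings name 12 of the 15 libraries differently, and under those names the labelled hindbrain GLASTneg libraries are spinal cord ones, the labelled spinal cord ones hindbrain GLASTpos, the labelled hindbrain GLASTpos ones forebrain GLASTpos and the labelled forebrain GLASTpos ones hindbrain GLASTneg. The position genes and Gdf10 go with the supplementary names. Groups are still called here by their labels, so a comparison by label may not be of the tissues it names. The value under the other names is given for each member that passed.

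Metallothionein mRNA was measured in all 15 FVB/N libraries, with Mt1 between 3246 and 5594 CPM. Mt3 was at 1616, 1140.2 and 1175 CPM in cells labelled hindbrain GLASTpos against 701, 696 and 555 CPM in those labelled hindbrain GLASTneg (log2 fold change 1.0 ± 0.24, adjusted p = 0.00352). Slc7a11 was at 302, 254 and 315 against 79.5, 108 and 91.7 CPM (log2 fold change 1.64 ± 0.31, adjusted p = 5.87e-05), and at 201, 278 and 255 CPM in cells labelled forebrain GLASTneg (log2 fold change 1.38 ± 0.31, adjusted p = 0.0018 against labelled hindbrain GLASTneg). Nqo1 was at 37.2, 67.9 and 75.2 CPM in cells labelled spinal cord and at 1.05, 19 and 0 CPM in those labelled hindbrain GLASTneg (log2 fold change 3.07 ± 0.81, adjusted p = 0.00625), and Mt2 passed there too, at 4023, 4678 and 3879.8 against 2775, 3121 and 2436 CPM (log2 fold change 0.57 ± 0.19, adjusted p = 0.0419). The groups of each of these 5 pairs did not overlap, but the pairs are named because they passed, so this adds no support. How many of all genes separate in this way was not counted. With 3 libraries a group, the Mt3 call was lost without labelled hindbrain GLASTneg replicate 3 or GLASTpos replicate 1 (adjusted p = 0.0635 and 0.0578), the Nqo1 call without labelled hindbrain GLASTneg replicate 1 or 3 (0.0735 and 0.064) and the Mt2 call without either of these or without labelled spinal cord replicate 2 (0.0984 to 0.195). Without labelled hindbrain GLASTneg replicate 2 the Nqo1 value was 6.18 (adjusted p = 0.000145).

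By label, 2 of 9 members passed for hindbrain GLASTpos against GLASTneg, 0 for forebrain GLASTpos against GLASTneg, 2 for spinal cord and 1 for forebrain GLASTneg against hindbrain GLASTneg, where 4.29%, 1.32%, 7.47% and 2.78% of all genes passed. Under the supplementary names 0 of 9 passed in each of the 4 comparisons, against 4.11%, 0.181%, 1.4% and 1.32% of all genes, with 2, 1, 4 and 2 members below an unadjusted p of 0.05. There Mt3 and Slc7a11 were -0.093 (adjusted p = 0.914) and -0.69 (adjusted p = 0.233) for hindbrain GLASTpos against GLASTneg, a comparison in which the median over all genes was -0.14, while Nqo1 and Mt2 were -1.60 (adjusted p = 0.518) and -0.64 (adjusted p = 0.0553) for spinal cord against hindbrain GLASTneg. All 4 had the opposite sign and none passed. The names bring other libraries into each comparison, so no measured difference was reversed. Slc7a11 for forebrain against hindbrain GLASTneg cells was 0.40 (adjusted p = 0.888). For labelled forebrain GLASTpos against GLASTneg, 2 members were below an unadjusted p of 0.05, and DESeq2 called these 2, Mt2 (0.46, adjusted p = 0.0226) and Gclm (-1.0, adjusted p = 0.00985). Under the supplementary names the edgeR values of Mt2 and Gclm for forebrain GLASTpos against GLASTneg were 0.13 ± 0.18 (adjusted p = 1) and -0.27 ± 0.31 (adjusted p = 1).

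**Figure D5:**
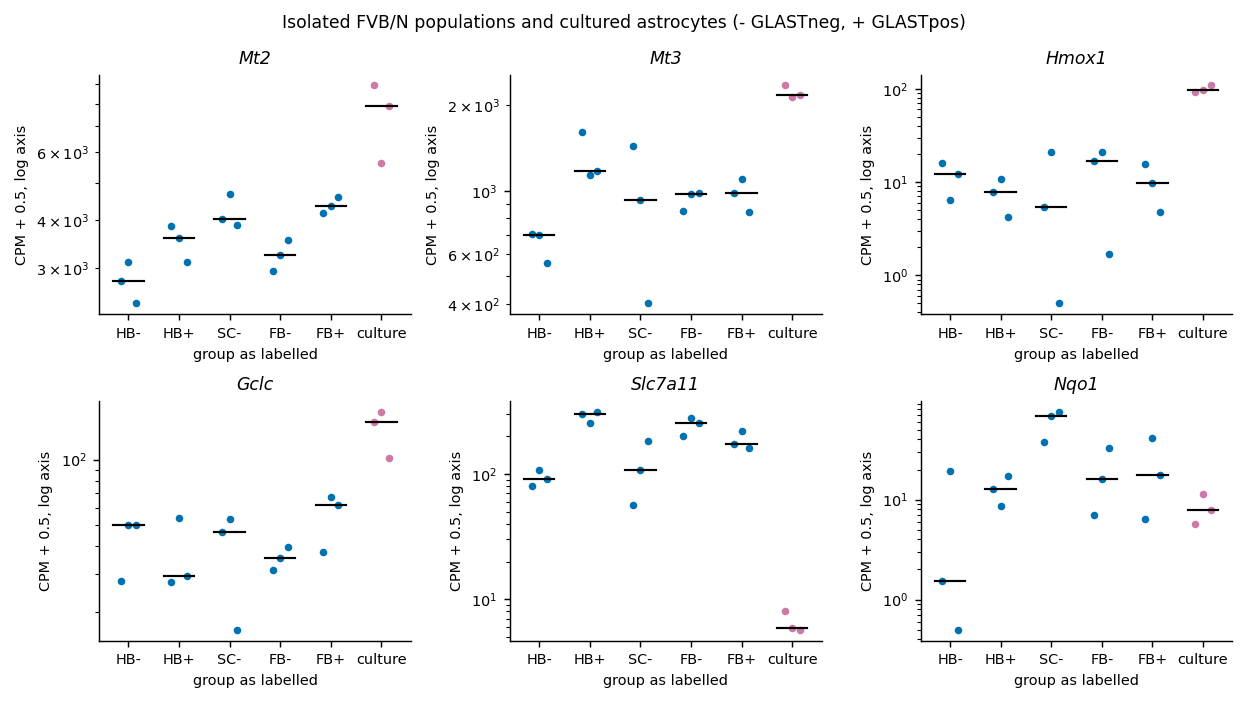
Levels of Mt2, Mt3, Hmox1, Gclc, Slc7a11 and Nqo1 in the 15 isolated FVB/N libraries by labelled group (blue) and in the 3 culture libraries (pink), as CPM plus 0.5 on a log axis with bars for group medians (HB hindbrain, SC spinal cord, FB forebrain). All culture points of Hmox1 and Gclc lie above, and those of Slc7a11 below, every isolated library, with Slc7a11 at 7.56, 5.37 and 5.21 CPM in culture before the 0.5 is added.

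Cultured neonatal astrocytes differed from the isolated adult cells in most members. Hmox1 was at 91.1, 96.1 and 108 CPM in culture and between 0 and 20.7 CPM in the isolated libraries (log2 fold change 3.33 ± 0.44, adjusted p = 4.35e-08). Gclc was at 149, 165 and 101 CPM, above all isolated libraries (log2 fold change 1.77 ± 0.27, adjusted p = 1.12e-06), whereas Gclm was at 124, 113 and 95.5 CPM, within their range (log2 fold change -0.055 ± 0.22, adjusted p = 0.901). Slc7a11 was at 7.56, 5.37 and 5.21 CPM, below the 55.8 to 315 CPM of all isolated libraries (log2 fold change -4.83 ± 0.34, adjusted p = 1.69e-15). All 3 metallothioneins were higher in culture, Mt1 at 11550.4, 5883 and 9605 CPM (log2 fold change 1.12 ± 0.14, adjusted p = 2.52e-08), Mt2 at 8934, 5616 and 7924 CPM (log2 fold change 1.07 ± 0.14, adjusted p = 1.75e-08) and Mt3 at 2349, 2139 and 2175 CPM (log2 fold change 1.25 ± 0.18, adjusted p = 3.86e-07). Every culture library was above every isolated one for Mt1, Mt2 and Mt3.

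Nfe2l2 was higher by a smaller margin (log2 fold change 0.65 ± 0.23, adjusted p = 0.0254), which no longer passed with median-of-ratios scaling (0.54, adjusted p = 0.0706), DESeq2 (0.54, adjusted p = 0.0806) or filterByExpr (0.50, adjusted p = 0.0867), nor without culture replicate 1 (0.41, adjusted p = 0.31), culture replicate 2 (0.61, adjusted p = 0.115) or labelled hindbrain GLASTpos replicate 3 (0.55, adjusted p = 0.0756). Nqo1 was at 5.17, 10.9 and 7.41 CPM and did not pass (log2 fold change -1.19 ± 0.61, adjusted p = 0.129). In this contrast 7 of 9 members passed (6 higher, 1 lower) where 36% of all genes did. The median log2 fold change was 0.43 over all genes, to which the values above are not centred, and 1.07 over the members. Culture and isolated libraries differ in strain, age, region and RNA extraction as well as in culture, which cannot be told apart. The summed astrocyte markers of the cultures were 5552 to 6127 CPM and their summed myeloid markers 490.5 to 3701 CPM, and the part of the latter was not tested.

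Over the 12 EAE group means, and among 10972 genes whose mean reached 5 CPM, the genes whose pattern was most like that of Mt2 were Mt1 (Pearson's r = 0.994), Lrrc8a (0.993) and Paqr8 (0.964). Those most like Mt3 were Pdgfd (0.992), Aldoc (0.988) and Oplah (0.988), those most like Hmox1 were Lgals8 (0.961), Stk3 (0.926) and Rhoj (0.92), and those most like Gclm were Canx (0.933), Golga3 (0.918) and Hmox2 (0.9). The 12 means share the contrast between spinal cord and hindbrain and the scaling, so that these values describe likeness over few groups.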

How the data were processed

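RNA of 84 libraries was read by QuantSeq 3′ sequencing (single 50-base reads). The authors trimmed the reads, aligned them to GRCm38 with HISAT 0.1.5, sorted them with SAMtools and counted them per gene with HTSeq 0.6.1p1 in union mode, and deposited raw counts in 1 table for EAE and 1 for the subtypes, neither normalized nor pooled over libraries. The strand setting is not given in the sources used here, so reads of a gene and of an antisense gene may have been joined. Each transcript is counted near its 3′ end.

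Groups were taken from the sample labels. The 9 genes and all gene lists were chosen with earlier results of these data known. Counts were tested with the two-sided quasi-likelihood test of edgeR (version 4.0.16, R 4.3.3) after TMM scaling, with 1 mean per group, on genes with at least 10 counts in total, and p-values were adjusted by the Benjamini-Hochberg method over all genes of a fit. A member passed at an adjusted p below 0.05, and the study's further limit of 1 on the log2 fold change was not required. The standard error was taken as the log2 fold change divided by the square root of F. EAE was fitted over 66 libraries in 12 groups, the FVB/N populations over 15 libraries and the cultures over 18. The 9 members are named in every contrast, and in each list around them the gene with the lowest adjusted p in each direction at score 4 in spinal cord, where one passed. Alternatives were median-of-ratios scaling, DESeq2 1.42.0, other filters, blocks and terms (limma 3.58.1 for a random block, on all tested genes and on those kept by filterByExpr), 1 population alone and each library left out, for which the abundance trend of the dispersion was kept from the complete fit. The tests were tried on simulated counts. For likeness of pattern, Pearson's r was taken over group means of log2 CPM. Promoter sequences come from RefSeq (GRCm38.p6) for 7 of 9 members.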

Additional observations from a re-analysis of the deposited data

Results flagged for a closer look

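Among the 108 pairs of a member and a group of 4 to 6 EAE libraries, 6 held a library that stood apart by Dixon's 95% criterion, which chance passes in about 1 in 20 groups. In chronic spinal cord, replicate 1 had 3025 CPM of Mt1 and 2651 CPM of Mt2, several times the other 5 libraries, and replicate 3 had 44.4 CPM of Nfe2l2, below the other 5. In hindbrain GLASTpos cells, E1 replicate 1 had 32661 CPM of Mt2 and E4 replicate 6 had 23536 CPM, each above the other 5 of its group. In hindbrain GLASTneg cells, E1 replicate 4 had 160.3 CPM of Hmox1, above the other 5.

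The change from control was compared with that in hindbrain GLASTneg cells for spinal cord and for hindbrain GLASTpos cells. By the interaction test of edgeR 11 of these 54 member results passed, all of them for spinal cord. Of all genes 0.214%, 8.56% and 7.2% passed for spinal cord at E1, E4 and Ech. For GLASTpos cells 0.00857%, 0.00857% and 0.06% passed. At E4 the difference (spinal cord minus hindbrain, log2 scale) was -1.86 for Mt1, -2.42 for Mt2, -3.28 for Mt3, 3.39 for Hmox1, 1.29 for Gclm and -1.93 for Slc7a11. At Ech it was -1.83 for Mt2, -2.79 for Mt3, 2.45 for Hmox1 and -4.28 for Slc7a11, and at E1 it was 2.00 for Hmox1.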

How the results depend on the processing

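The number of member results that passed was 11 of 27 for spinal cord stages, 5 of 27 for hindbrain GLASTpos stages, 7 of 27 for chronic against score 4, 3 of 18 for control populations and 7 of 9 for culture, and each of these counts stayed within 1.5 times under every alternative that kept all libraries. The count of 0 of 27 for hindbrain GLASTneg stages became 2 without a filter on low counts and 4 with that population fitted alone. The 11 of 54 for response differences became 7 with a term for the last library number and 6 with the library number as a random block in limma-voom on all genes with at least 10 counts. In that fit the voom weights of Mt2 ran from 23.3 to 2094867 between libraries and its standard error at E4 was 11.4 on the log2 scale (1.58 for Mt1), so its values for these abundant genes are not used. There Hmox1 did not pass at E1 (1.92, adjusted p = 0.222) or Ech (2.05, adjusted p = 0.0584). On the 15748 genes kept by filterByExpr, a version added after these values were seen, the weights of Mt2 ran from 11.5 to 38.8, the standard errors were 0.482 and 0.470, and 11 of 54 passed. The 5 of 36 for FVB/N populations became 0 under the names of the supplementary headings, which bring other libraries into each comparison. There Slc7a11 (-0.69) and Mt3 (-0.093) for hindbrain GLASTpos against GLASTneg and Nqo1 (-1.60) and Mt2 (-0.64) for spinal cord against hindbrain GLASTneg had the opposite sign and did not pass. Leaving out 1 library gave 10 to 12 for spinal cord, 0 to 0 and 4 to 5 for hindbrain GLASTneg and GLASTpos stages, 4 to 9 for chronic against score 4 (4 without chronic hindbrain GLASTpos replicate 1), 9 to 12 for response differences, 3 to 3 for controls, 2 to 6 for FVB/N (3 without labelled hindbrain GLASTneg replicate 1, 2 without replicate 3) and 6 to 7 for culture. Mt2 in spinal cord at Ech against E4 ran from -1.10 to 0.24, the former without Ech replicate 1. Libraries of different groups with the same replicate number were not alike after removal of group means (mean r -0.00436 over 340 pairs in EAE, -0.0065 over 30 in the subtype table), so the replicate number does not pair them. With it as a replicate block, 222 of 225 member results kept their side of the threshold, and Mt1 in chronic spinal cord (-1.06, adjusted p = 0.0342), Slc7a11 at E1 in hindbrain GLASTpos cells (-1.46, adjusted p = 0.0505) and Hmox1 there at Ech against E4 (-1.13, adjusted p = 0.0399) crossed it. EAE libraries of different groups that shared the first number of the library name had a mean r of 0.0421 (40 pairs, 8 above 0.1). For other EAE pairs the mean r was -0.000797 (1954 pairs, 143 above 0.1). The labels do not give the meaning of this first number, and the main fit treated all libraries as independent. Leaving out the 3 doubted spinal cord libraries was also chosen after seeing the data. The causes of the other shifts were not tested. Depth limits Slc7a11 in chronic spinal cord and Nqo1 and Hmox1 in FVB/N libraries, where single values lay at or under 3 counts.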

Other observations

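At score 1 in spinal cord, 4 of 21 further NRF2 targets were higher and 0 lower (median log2 fold change 0.29), and in the chronic stage 7 were higher and 6 lower (median 0.26). STAT3 acute-phase genes, of which Gfap is also in the astrocyte list, were higher in 7 of 9 at score 1 and 6 of 9 in the chronic stage (medians 3.79 and 3.01), and ATF4 targets in 3 of 9 at both (medians 0.90 and 0.61). Of all genes tested, 3.94% were higher and 4.48% lower at score 1, and 7.64% and 11% in the chronic stage. In hindbrain at score 1, STAT3 acute-phase genes were higher in 7 of 9 in both GLASTneg and GLASTpos cells (medians 3.79 and 3.46) and glucocorticoid-responsive genes in 3 and 4 of 8 (medians 0.78 and 1.07), where 0.66% and 1.32% of all genes were higher.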
